A study of Mus musculus with 4 samples.

Results

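The fatty acid binding protein genes Fabp3, Fabp4, Fabp5 and Fabp7 and the long-chain acyl-CoA synthetase genes Acsl1, Acsl3, Acsl4 and Acsl5 were followed in mouse bone marrow with and without leukemia driven by MN1. Members were all probe sets whose platform gene symbol was 1 of these 8, and the genes had been picked with their leukemic and mature signals known. For 7 of the 8 a probe set named the gene, with 16 probe sets in all, against 12378 tested genes on the array. Acsl1 was named by no probe set here and was not analysed. Because the same contrast was used to pick the genes, their levels and differences are given as a description, with no test.

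Expression was measured on 4 single-colour arrays, each from 1 RNA sample of C57BL/6J marrow. The 2 MN1 leukemic arrays came from marrow of mice with leukemia, made by transducing marrow cells with an MN1 retrovirus. The donor marrow had been taken 4 days after 150 mg/kg fluorouracil and stimulated for 48 hours with interleukin-6, interleukin-3 and stem cell factor. Cells sorted for the green fluorescent marker of the virus were then injected into syngeneic recipients irradiated with 750 cGy, together with fresh protective marrow. The leukemic samples may therefore hold host or helper cells, and the labels do not say that they were sorted before RNA was taken. The 2 Gr1/Mac1 arrays came from mature myeloid marrow cells of healthy mice, positive for Gr1 and CD11b, the antigen also called Mac1. The design text calls these mice healthy, although the labels attach the same treatment text to all 4 samples. The labels give no ages. No normal immature cell is among the arrays, so that MN1 leukemia and immaturity cannot be told apart.

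Fatty acids enter and move through cells bound to small cytosolic carriers, the fatty acid binding proteins, which hold 1 fatty acid or related lipid in a barrel-shaped pocket. Acyl-CoA synthetases then join a fatty acid to coenzyme A, the step that commits it to oxidation, to membrane and storage lipids, or to further elongation. In marrow, macrophages use Fabp4 and Fabp5 when they take up lipid, whereas Fabp7 is best known from radial glia of the brain and Fabp3 from heart and muscle. Neutrophils draw on arachidonic acid, a substrate favoured by the enzyme that Acsl4 encodes, to make inflammatory lipid mediators.

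RefSeq promoter windows, from 250 bases before to 50 after a gene's start (build GRCm38.p6), were held for 6 of the 8 listed genes, among them 5 of the 7 that were measured. The pair of measured genes with a window and the largest differences upward in leukemic marrow is printed first. A fatty acid binding protein and a synthetase with small differences follow. Capitals mark matches, on either strand, to any of 8 motifs, whose letters or names are given after the sequences. A run of capitals can join neighbouring matches. Positions are chr10:57784673-57784972 (plus strand) for Fabp7, chr19:55253119-55253418 (plus strand) for Acsl5, chr4:130308488-130308787 (plus strand) for Fabp3 and chr1:78657575-78657874 (plus strand) for Acsl3.
Fabp7: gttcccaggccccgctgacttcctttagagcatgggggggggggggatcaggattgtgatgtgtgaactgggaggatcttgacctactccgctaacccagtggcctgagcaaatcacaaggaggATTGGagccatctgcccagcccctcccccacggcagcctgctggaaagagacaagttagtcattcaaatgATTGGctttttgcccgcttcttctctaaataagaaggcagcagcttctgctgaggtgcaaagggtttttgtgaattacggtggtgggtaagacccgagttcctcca
Acsl5: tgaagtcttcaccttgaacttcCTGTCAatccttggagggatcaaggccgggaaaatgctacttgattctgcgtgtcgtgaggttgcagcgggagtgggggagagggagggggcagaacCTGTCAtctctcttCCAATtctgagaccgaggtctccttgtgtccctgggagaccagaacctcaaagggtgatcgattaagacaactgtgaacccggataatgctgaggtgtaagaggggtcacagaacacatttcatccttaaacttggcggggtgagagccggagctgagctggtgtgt
Fabp3: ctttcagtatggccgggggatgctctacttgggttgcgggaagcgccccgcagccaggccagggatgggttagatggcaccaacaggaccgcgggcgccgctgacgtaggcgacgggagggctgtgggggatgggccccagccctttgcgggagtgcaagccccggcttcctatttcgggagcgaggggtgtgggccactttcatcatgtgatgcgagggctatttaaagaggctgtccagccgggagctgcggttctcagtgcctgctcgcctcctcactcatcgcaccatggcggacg
Acsl3: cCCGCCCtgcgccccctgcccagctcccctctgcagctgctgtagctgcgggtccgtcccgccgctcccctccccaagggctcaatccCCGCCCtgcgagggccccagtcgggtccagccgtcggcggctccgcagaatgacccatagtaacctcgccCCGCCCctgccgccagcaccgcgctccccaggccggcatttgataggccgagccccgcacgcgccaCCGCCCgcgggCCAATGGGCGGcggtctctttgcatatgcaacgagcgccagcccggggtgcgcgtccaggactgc

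Base composition divided these windows differently from family. The Fabp7 window held 54% G and C with 6 CpG dinucleotides, and the Acsl5 window 53% with 9, close to the median of 52.7% over all 32851 windows in the table. Fabp3 had 65% and 22 CpG, Acsl3 74% and 33 CpG, and Acsl4 71.7% and 33 CpG. The CCAAT letters, the binding motif of NF-Y, occurred in the Fabp7, Acsl5 and Acsl3 windows and in 37.4% of all windows. GGGCGG, the GC box read by SP1 proteins, was present for Acsl3 and Acsl4 and in 35.7% of all windows. TGACAG, the half-site of MEIS proteins, was found at 2 places in the Acsl5 window, in no other measured member, and in 19.2% of all windows. TATAAA (the TATA box, 13.6% of all windows), CACGTG (the E-box of MYC proteins, 7.15%), TGATTNAT (a HOX and PBX site, 3.22%), the PPAR element (0.0396%) and CCGGAAGT (an ETS core, 3.89%) matched none of the 5 measured members' windows. These are matches of letters and say nothing of binding. Whether base composition or motifs go with the expression differences was not tested.

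Across the whole array, 5375 of 12378 tested genes differed between the groups, 43.4% of them (limma, Benjamini-Hochberg adjusted p threshold 0.05), with 27.5% higher and 15.9% lower in leukemic marrow. Without leukemic replicate 1 there were 3429 such genes and without leukemic replicate 2 there were 2575. Values are MAS5 signals in arbitrary units, and differences, on the log2(signal + 16) scale, are leukemic minus mature. On this scale the median difference of all tested genes was 0.28. Marker lists, chosen with earlier results of these data known, followed the labels in part. Of 6 tested progenitor genes, 6 were higher in leukemic marrow, and Itgam, which encodes CD11b, was lower. The granulocyte list had 5 of 10 tested genes lower and 0 higher, and its summed signal overlapped between leukemic (234054 and 398671) and mature arrays (317856 and 398792). Most tested erythroid markers were also higher in the leukemic group. Of 8 listed 6 had a probe set and 5 were tested, of which 4 rose and 0 fell, with summed signals of 19657 and 32744 in leukemic against 7690 and 3231 in mature arrays. Klf1 and Gata1, transcription factors of red cell precursors, averaged 10311 ± 1633 and 5767 ± 1250 in leukemic against 77.9 ± 33.3 and 146 ± 10.7 in mature arrays. Alas2, which made up most of each mature sum, read 1354 and 3152 in leukemic against 6164 and 2176 in mature arrays. It did not pass, and Hba-a1 lay below the filter. Of 6 listed megakaryocyte markers 5 were tested, 1 rose and 0 fell, with summed signals of 3205 and 2576 against 865 and 920.1. The gene that rose, Itga2b, made up most of the leukemic sum, at 2092 and 1794 against 207 and 233 in mature arrays. Ppbp read 42.7 and 18.2 in leukemic against 64.1 and 71.3 in mature arrays and did not pass. The part of erythroid cells and megakaryocytes in the higher leukemic signals described here was not tested. The single probe set naming Mn1 lay below the filter on low signals, at 17.7 and 92.6 in leukemic and 3.92 and 12.1 in mature arrays. RNA and hybridization controls differed between the groups as well. For beta-actin, signal at the 3′ end over that at the 5′ end was 3.28 and 3.09 in leukemic against 1.32 and 1.39 in mature arrays. Over the 18 probe sets of spiked hybridization controls the geometric mean was 11918 and 8949.8 in leukemic against 4044 and 4168 in mature arrays. If arrays are scaled to those controls, with 1 factor for each group, the median difference of all tested genes moves to -0.95. Members are therefore also given relative to the median of the deposited signals. By brightest probe set they lay at 7.81 (Fabp7), 1.32 (Acsl5), 0.89 (Fabp5), 0.49 (Acsl4), 0.17 (Acsl3), 0.03 (Fabp3) and -1.17 (Fabp4). The Acsl3 probe set 1428386_at and the Acsl4 probe set 1451828_a_at lay at -0.07 and -0.12. Single genes outside the members are given relative to 0 only. The part of the RNA and hybridization controls in the results was not tested.

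Fabp7 stood apart from its relatives. Its single probe set (1450779_at) read 4535.7 and 7405.8 in leukemic marrow but 2.28 and 8.86 in mature cells. Both leukemic arrays lay far above both mature arrays, the lower leukemic signal being 512-fold the higher mature one. The group means were 5971 ± 2029 and 5.57 ± 4.66 (SD, n = 2 here and below), a log2 difference of 8.09 (SE 0.36). That size rests on mature signals near the bottom of the scale and on the pseudocount. A pseudocount of 1 gave 9.99 and a pseudocount of 64 gave 6.40, and scaling to the hybridization controls left 7.24. In bulk RNA, fewer cells of a type and less RNA per cell cannot be told apart, for this gene as for all that follow. The summed signal of glial markers overlapped between the groups. Of 6 listed glial markers 4 had a probe set, and their summed signal was 191 and 285 in leukemic against 211 and 274 in mature arrays. Of the 2 bright enough to be tested, 0 passed. Gfap read 81.5 and 91.9 in leukemic against 8.13 and 45.1 in mature arrays. Sox10 went the other way, at 76.2 and 118 against 163 and 199. Olig1 and S100b lay below the filter. The part of glial cells in the Fabp7 values was not tested.

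The genes whose profile over the 4 arrays was nearest to that of Fabp7, by the root mean square difference of log2 values, were Sphk1 (0.40), Septin8 (0.55) and Car3 (0.62). Sphk1, which encodes the kinase that makes sphingosine-1-phosphate, read 3483 and 5925 in leukemic and averaged 12.9 ± 4.38 in mature arrays. Septin8, a cytoskeletal GTPase gene, read 4656 and 6516 against 20.2 and 2.47. Car3, a carbonic anhydrase gene, read 2878 and 3595 against 4.04 and 6.57. Nearness over 4 arrays in 2 groups reflects mostly the group difference.

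Fabp5 differed less and was well expressed in both groups. This gene encodes the carrier first described in skin, which is also made by macrophages and many dividing cells. Its brighter probe set (1416021_a_at) read 16301.5 and 19906 in leukemic and 7955 and 8071 in mature arrays. The mature replicates were almost equal, and each leukemic array was at least 2.02-fold above both. Its dimmer probe set (1416022_at) read 3383 and 3642 against 1484 and 835, again with no overlap. The log2 differences were 1.17 (SE 0.28) and 1.64 (SE 0.31), but with arrays scaled to the hybridization controls the brighter one turned to -0.16 and the dimmer one fell to 0.32. Against the median of all tested genes, the brighter probe set lay 0.89 higher. Most tested macrophage genes moved the other way. Of 12 listed macrophage markers, all with a probe set, 10 were tested, and 6 were lower and 2 higher in leukemic marrow. The 2 higher were Cd163 and Mrc1. The summed signal of the list was 6971 and 4595 in leukemic against 33743 and 22861 in mature arrays. Csf1r made up most of each mature sum, at 23525 and 14926, and read 2431 and 1955 in leukemic arrays. The part of macrophages in the Fabp5 values was not tested.

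Fabp4, the carrier of adipocytes and of lipid-laden macrophages, had low signals, lower on average in leukemic marrow. The brightest of its 4 probe sets (1451263_a_at) read 67.2 and 26.6 in leukemic and 94.8 and 94.8 in mature arrays. A second probe set (1417023_a_at) read 14.1 and 42.2 against 103 and 122. In both of these each leukemic array was below each mature array, with log2 differences of -0.90 (SE 0.56) and -1.61 (SE 0.57). The former was -1.38 without leukemic replicate 1 and -0.41 without leukemic replicate 2. The third (1425809_at) read 20.1 and 28.5 against 20.5 and 131, and the fourth (1424155_at), below the filter, 6.14 and 4.92 against 2.71 and 30.5. Here the mature replicates differed 6.39-fold and 11.3-fold from each other, and the groups overlapped. All 4 log2 differences were below 0, from -1.61 to -0.46, and remained so under quantile normalization, with every array at the same median and with scaling to the hybridization controls. The filter kept probe sets with a mean signal of at least 47.6, so that the Fabp4 values sit near its edge. Closest to Fabp4 over the 4 arrays were Tmem26 (0.12), Nodal (0.14) and Mbl1 (0.14), each also with leukemic signals under 80 and mature signals under 115.

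Adipocyte and endothelial markers are given beside Fabp4 because both cell types make it. Of 8 listed adipocyte markers 6 had a probe set, and their summed signal was 375 and 183 in leukemic against 3851 and 1668 in mature arrays. Most of the mature sum was Lpl, a lipase gene also used by macrophages, at 3659 and 1359. Retn, which encodes resistin and was the other tested gene, read 102 and 10.7 in leukemic and 113 and 262 in mature arrays and did not pass. Adipoq, Lep, Cidec and Pparg lay below the filter, and Adipoq, which marks adipocytes, read 40.6 and 14.3 in leukemic and 40.1 and 2.50 in mature arrays. The summed signal of the 7 endothelial markers was 541 and 681 in leukemic against 166 and 209 in mature arrays, with Cdh5, Emcn, Pecam1, Tek and Tie1 below the filter. Of the 2 tested, Vwf rose, at 240 and 472 in leukemic against 47.0 and 6.39 in mature arrays. Kdr read 56.4 and 76.5 against 34.8 and 94.7 and did not pass. The share of adipocytes, endothelial cells and macrophages in the Fabp4 values was not tested.

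Fabp3, the heart and muscle carrier, gave no difference larger than its spread. Its probe set 1444844_at read 88.4 and 71.0 in leukemic and 26.6 and 124 in mature arrays. The other (1416023_at) read 51.5 and 49.9 against 67.4 and 40.4. Both leukemic arrays lay between the mature replicates in each case, with log2 differences of 0.31 (SE 0.68) and -0.04 (SE 0.53). The former was -0.55 without mature replicate 1, 1.16 without mature replicate 2 and 0.17 without leukemic replicate 1. Under scaling to the hybridization controls these became -0.75 and -1.05.

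**Figure D1:**
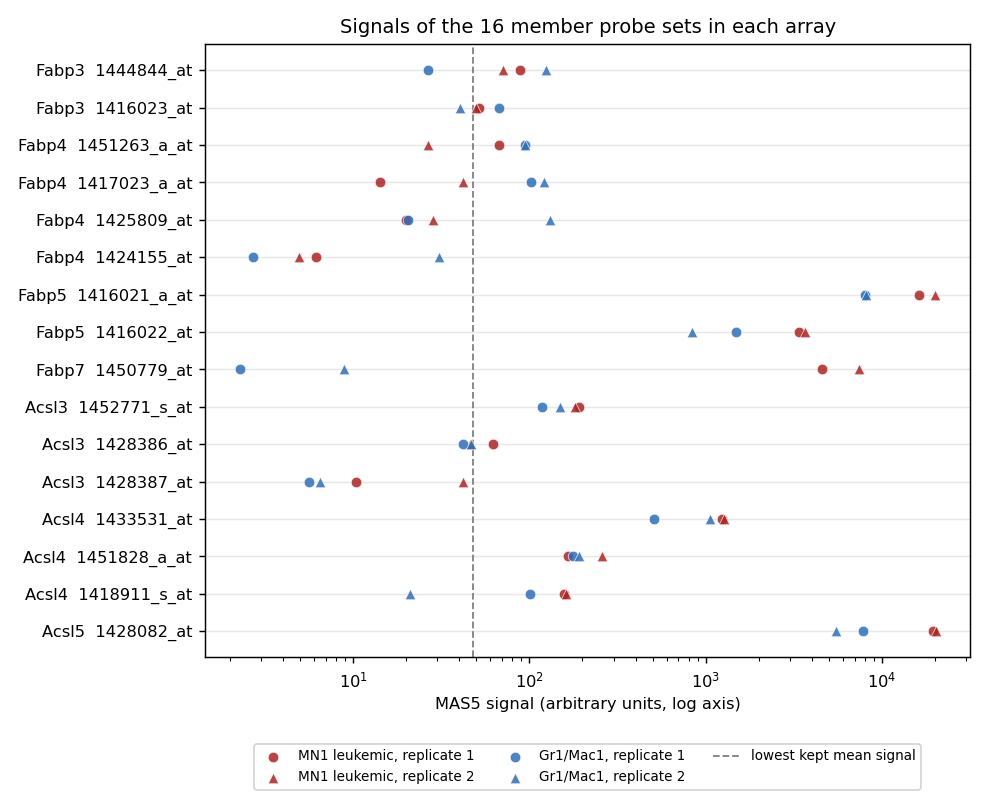
MAS5 signal (log axis, arbitrary units) of the 16 member probe sets in each of the 4 arrays, red for MN1 leukemic and blue for Gr1/Mac1, with circles for replicate 1 and triangles for replicate 2. The dashed line is the lowest mean signal kept, 47.6. Fabp7 has both leukemic arrays at 4535.7 and 7405.8 and both mature arrays under 9, while the Fabp3 groups overlap.

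Among the synthetases, Acsl5 had the largest difference. Acsl5 is found at mitochondria and the endoplasmic reticulum and is abundant in intestine. Its only probe set (1428082_at) read 19333.5 and 20131 in leukemic and 7803 and 5452 in mature arrays. Each leukemic array was at least 2.48-fold above each mature one, and the leukemic replicates differed by only 1.04-fold. The means of 19732 ± 564 and 6628 ± 1662 gave a log2 difference of 1.59 (SE 0.30), which shrank to 0.27 with overlapping arrays under scaling to the hybridization controls. Relative to the median of all tested genes it was 1.32 higher.

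Acsl4 prefers arachidonic acid and other polyunsaturated fatty acids and is known for its role in ferroptosis, a form of cell death by lipid peroxidation. Its brightest probe set (1433531_at) read 1244 and 1271 in leukemic and 509.6 and 1056 in mature arrays. No array overlapped, but the mature replicates differed 2.07-fold from each other while the lower leukemic array was only 1.18-fold above mature replicate 2. Probe set 1418911_s_at read 158 and 162 against 101 and 21.2, and 1451828_a_at read 165 and 257 against 177 and 192. The groups did not overlap in the former and did in the latter. Their log2 differences were 0.76 (SE 0.36), 1.41 (SE 0.64) and 0.15 (SE 0.38) in the order given. The first was 0.25 without mature replicate 1 and 1.28 without mature replicate 2. With scaling to the hybridization controls the first turned to -0.55 and the last to -1.08, and the last was also below 0 under quantile normalization (-0.20) and with every array at the same median (-0.14). Acsl4 lies on chromosome X, and mature replicate 2 stood apart in sex-linked genes. Xist read 114 there and 7138 to 19642 in the other arrays, and the Y-linked Eif2s3y read 4409 there and at most 3.01 elsewhere. The brightest Acsl4 probe set was higher in that array than in mature replicate 1, and 1418911_s_at was lower. The part of sex in these values was not tested.

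Acsl3 is a synthetase of the endoplasmic reticulum and of nascent lipid droplets. Its brightest probe set (1452771_s_at) read 192 and 181 in leukemic and 118 and 150 in mature arrays. The separation was narrow, since the lower leukemic array was 1.21-fold above the higher mature one and the mature replicates differed 1.27-fold. Probe set 1428386_at read 62.6 and 45.9 against 41.9 and 46.8, with overlap, and 1428387_at, below the filter, read 10.3 and 42.1 against 5.62 and 6.52. The log2 differences were 0.44 (SE 0.38), 0.21 (SE 0.52) and 0.83 (SE 0.47). The first was 0.29 without mature replicate 1, 0.09 under quantile normalization and 0.15 with every array at the same median. Scaling to the hybridization controls turned the first to -0.77 and the second to -0.79, and the second was also at -0.03 with every array at the same median.

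Of the 7 measured members, read from their brightest probe sets, 5 had both leukemic arrays above both mature arrays, 1 had both below, and 1 overlapped. Over all tested genes 45.9% were separated upward and 28.3% downward in this way. By probe set, 8 of 16 were separated upward and 2 downward, beside 32.6% and 24.4% of all 45037 probe sets. These genes were picked on this contrast, so nothing is read from the counts. Their median log2 difference was 0.76, beside 0.28 for all tested genes. When arrays were scaled to the hybridization controls, Fabp7 was the 1 member separated upward and 4 were separated downward. That scaling moved the median of all tested genes to -0.95, with 1083 genes called higher and 5944 lower. The share of all tested genes separated was not counted under it, so nothing is read from these counts either.

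**Figure D2:**
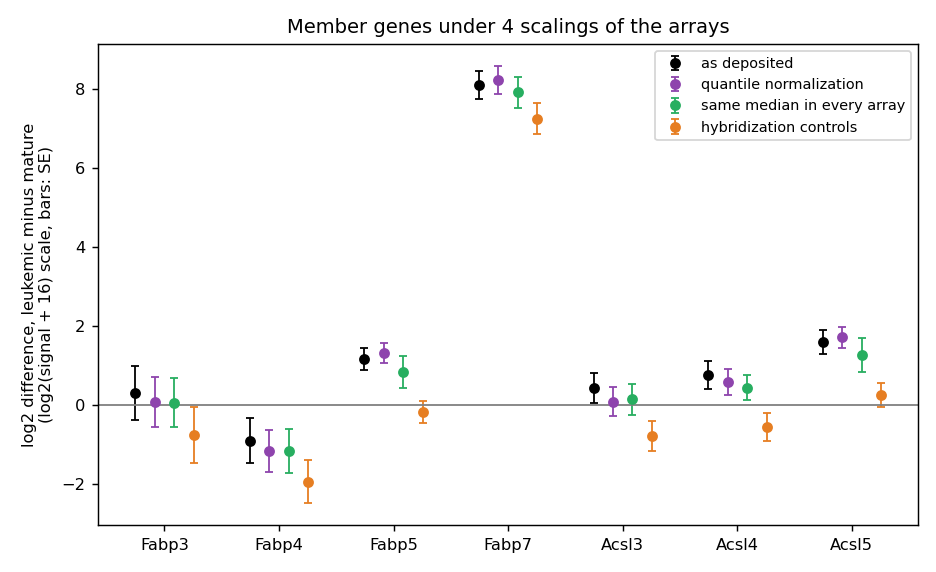
Log2 difference, leukemic minus mature, of the 7 measured members on the log2(signal + 16) scale, with the SE of the limma fit as bars, for the signals as deposited and under 3 other scalings of the arrays. Fabp7 stays at 7.24 or more and Fabp4 below 0 under all 4. Fabp3, Fabp5, Acsl3 and Acsl4 turn below 0 when arrays are scaled to the hybridization controls. That scaling moves the median of all tested genes from 0.28 to -0.95.

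Genes of the same families outside the members were tested in the fit over the whole table. The genes Fabp4 and Fabp5 lie in a cluster on mouse chromosome 3 with Pmp2, Fabp9 and Fabp12, and these neighbours were dim. Fabp1, Fabp2, Fabp6, Fabp9 and Fabp12, 5 genes in all, lay below the filter, with signals between 1.62 and 66.9 over the 4 arrays. In the list of lipid-binding proteins 6 of 18 genes were tested, 0 rose and 1 fell. That gene was Scp2, which encodes sterol carrier protein and a peroxisomal thiolase, with 5687 ± 761 in leukemic and 20882 ± 2951 in mature marrow (log2 fold change -1.87, SE 0.25, limma adjusted p = 0.0017). The acyl-CoA binding protein gene Dbi, chosen here after its values were seen, read 3956 and 3841 against 4584 and 3385, and did not pass (-0.02, SE 0.24, limma adjusted p = 0.97).

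Other acyl-CoA synthetases moved in both directions. Of 20 listed genes 7 were tested, 3 rose and 2 fell, with a median of 1.30. That median was 0.42 both without the filter and with the lowest 60% of probe sets left out. It was 0.04, with 1 higher and 3 lower, under scaling to the hybridization controls. Acss1, the mitochondrial acetyl-CoA synthetase, rose from 263 ± 182 to 3562.5 ± 256 (3.85, SE 0.45, limma adjusted p = 0.0012). Slc27a1, a fatty acid transport protein with synthetase activity, rose from 34.7 ± 19.9 to 169 ± 2.46 (1.93, SE 0.49, limma adjusted p = 0.018). Acsf3, the mitochondrial malonyl-CoA synthetase, rose from 208 ± 78.2 to 521 ± 24.9 (1.30, SE 0.35, limma adjusted p = 0.021). Slc27a4, another fatty acid transport protein, fell from 4553 ± 392 to 619 ± 195 (-2.88, SE 0.28, limma adjusted p = 6.7e-04). Aacs, which activates acetoacetate for lipid synthesis, fell from 773 ± 153 to 311 ± 58.9 (-1.27, SE 0.30, limma adjusted p = 0.013). Acsl6, the remaining long-chain synthetase and chosen here after its values were seen, read 74.7 and 123 in leukemic and 45.8 and 11.2 in mature arrays and did not pass (1.45, SE 0.61, limma adjusted p = 0.098). The calls of Slc27a1 and Acsf3 were lost without leukemic replicate 1 (log2 fold change 1.94 and 1.26) or leukemic replicate 2 (1.91 and 1.35), and that of Aacs without leukemic replicate 2 (-1.08). With either of those arrays left out, 1 gene of the list rose in place of 3. Acss1 was at 2.36 by the mean of its probe sets, and Aacs at -1.91 without probe sets with shared suffixes. Fold changes of Slc27a1 and Acsf3 shrank to 0.86 and 0.04, without a call, under scaling to the hybridization controls.

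**Figure D3:**
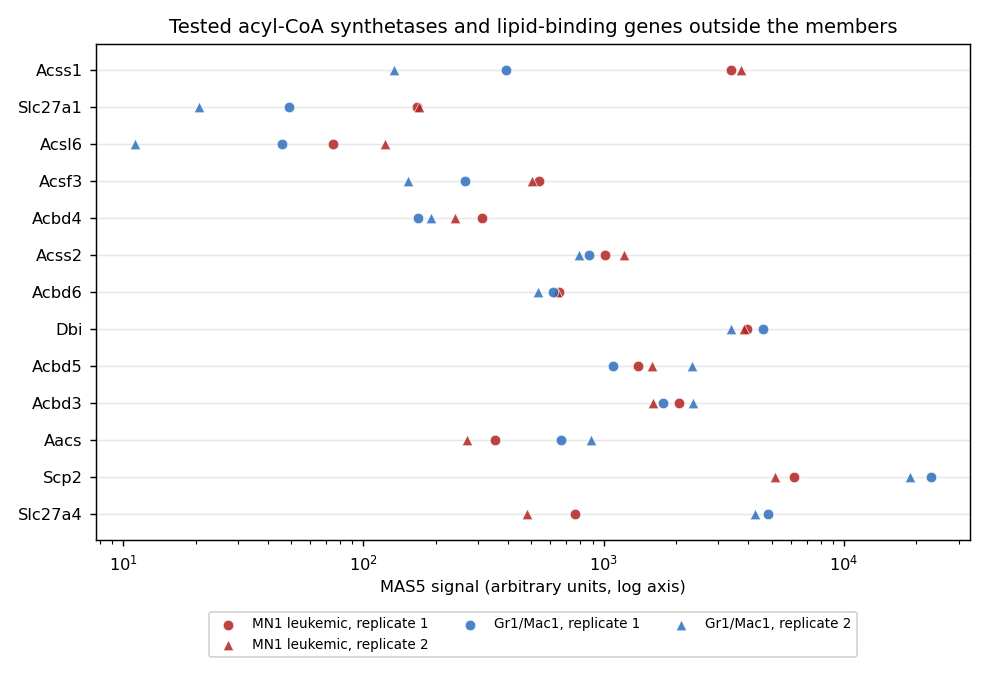
MAS5 signal (log axis, arbitrary units) in each array of the 13 tested acyl-CoA synthetase and lipid-binding genes outside the members, ordered by log2 fold change, with red for MN1 leukemic, blue for Gr1/Mac1, circles for replicate 1 and triangles for replicate 2. Acss1 has the highest leukemic over mature ratio, and Slc27a4 and Scp2 have both leukemic arrays far below both mature arrays.

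The genes that supply fatty acids to the carriers and use the acyl-CoA products were described by list. Over the 10 lists, 141 of 203 genes were tested, 45 rose and 35 fell, which is 31.9% and 24.8% beside 27.5% and 15.9% of all tested genes. Their median log2 fold change was 0.14, beside 0.28. Without leukemic replicate 1 there were 49 calls and without leukemic replicate 2 there were 41, in place of 80. The hybridization-control scaling gave 16 that rose and 76 that fell.

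Uptake genes included 2 that rose and 4 that fell of 11 tested, with a median of -0.15. Lpl, the lipase that frees fatty acids from lipoproteins, fell from 2509 ± 1626 to 125 ± 47.8 (-4.03, SE 0.50, limma adjusted p = 0.0014), and the scavenger receptor gene Msr1 fell from 359 ± 0.13 to 46.0 ± 8.59 (-2.61, SE 0.37, limma adjusted p = 0.0022). Both are also genes of macrophages, whose summed marker signal, mostly Csf1r in mature arrays, was lower in both leukemic arrays. The part of macrophages in the Lpl and Msr1 values was not tested. Lrp1, a receptor for lipoprotein remnants, rose from 824 ± 241 to 8248 ± 106 (3.33, SE 0.27, limma adjusted p = 3.9e-04), while 1 of its 2 kept probe sets had the opposite sign without a call. The mean of its probe sets gave 1.13. Vldlr, the receptor of very low density lipoprotein, rose from 56.6 ± 3.15 to 205 ± 3.91 (1.61, SE 0.39, limma adjusted p = 0.015). The Vldlr call was lost without leukemic replicate 1 (1.59) or leukemic replicate 2 (1.63). Without leukemic replicate 2 the median of the list turned to 0.27 and 2 genes fell, whereas without leukemic replicate 1 it was -0.94 and 5 fell. In each of these cases 1 gene rose. Scaled to the hybridization controls, the list had 1 higher and 7 lower genes and a median of -1.19.

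Acyl-CoA thioesterases, which undo the synthetase reaction, had 3 genes up and 2 down of 9 tested, with a median of 0.13 that turned to -0.19 with every array at the same median and to -1.18 under scaling to the hybridization controls. Acot6 rose (1.82, SE 0.47, limma adjusted p = 0.020) and so did the mitochondrial Acot2 (1.22, SE 0.26, limma adjusted p = 0.0088), the latter at -0.07 under that scaling. The cytosolic Acot1 fell from 513 ± 241 to 96.9 ± 3.22 (-2.15, SE 0.41, limma adjusted p = 0.0058), and Acot9 from 7052 ± 700.2 to 2864 ± 273 (-1.29, SE 0.23, limma adjusted p = 0.0044). Acot1 and Acot2 are close paralogs, and their probe sets may see each other's transcripts. Under quantile normalization or with every array at the same median, 1 of the list rose. No thioesterase rose without leukemic replicate 1 or without leukemic replicate 2, when Acot6 was at 1.75 and 1.88 and Acot2 at 1.31 and 1.13. Without mature replicate 2 the median of the list turned to -0.35, and without mature replicate 1 it was 0.72. It was -0.24 without the filter and -0.27 with the lowest 60% of probe sets left out.

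Mitochondrial beta-oxidation, a main fate of the acyl-CoA that these synthetases make, had 11 genes up and 2 down of 23 tested. The median was 0.70 and turned to -0.53 when arrays were scaled to the hybridization controls. Hadh, which encodes the short-chain hydroxyacyl-CoA dehydrogenase, rose from 973 ± 656 to 13352 ± 402 (3.94, SE 0.45, limma adjusted p = 0.0011). Cpt1c, a carnitine palmitoyltransferase gene known mainly from brain, rose from 29.2 ± 30.9 to 393 ± 301 (3.14, SE 0.73, limma adjusted p = 0.013). Acad11 fell from 1688 ± 404 to 833 ± 74.4 (-0.99, SE 0.26, limma adjusted p = 0.022), and Cpt2, which releases acyl-CoA inside the mitochondrion, from 1349 ± 85.2 to 808 ± 88.8 (-0.73, SE 0.24, limma adjusted p = 0.044). With every array at the same median 5 genes rose. Calls thinned to 5 up and 0 down without leukemic replicate 1 and to 3 up and 0 down without leukemic replicate 2. Acad11 was then at -0.90 and -1.08, and Cpt2 at -0.62 and -0.84. Without mature replicate 1 Cpt2 was at -0.67 and had no call. Cpt1c lost its call without leukemic replicate 2 (2.31) or mature replicate 1 (2.38).

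In the peroxisome, 5 of 13 tested genes rose and 3 fell, with a median of 0.62. With every array at the same median 1 rose, and under quantile normalization 2 did. The median became -0.61 when arrays were scaled to the hybridization controls, and 0 genes then rose. Amacr, the racemase for branched fatty acids, rose (1.80, SE 0.45, limma adjusted p = 0.017), as did Pecr, an enoyl-CoA reductase gene (1.26, SE 0.31, limma adjusted p = 0.017). Abcd2, a transporter of very long chain acyl-CoA, fell from 1126 ± 376 to 232 ± 143 (-2.29, SE 0.46, limma adjusted p = 0.0073), and Phyh, which starts phytanic acid breakdown, from 4069 ± 271 to 1186 ± 158 (-1.77, SE 0.23, limma adjusted p = 0.0016). No gene of the list rose without leukemic replicate 1 (Amacr 2.08, Pecr 1.30) or leukemic replicate 2 (Amacr 1.53, Pecr 1.22), and 2 fell in each case.

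Synthesis, elongation and desaturation had 10 genes up and 4 down of 24 tested, with a median of 0.60. Elovl6, the elongase of palmitate, rose from 171 ± 74.7 to 6580.1 ± 1796 (5.18, SE 0.35, limma adjusted p = 2.4e-04), and the desaturase gene Fads2 from 38.5 ± 21.3 to 425 ± 23.2 (3.07, SE 0.43, limma adjusted p = 0.0020). Hacd4, a dehydratase of the elongation cycle, fell from 11789 ± 1989 to 1294 ± 548 (-3.23, SE 0.33, limma adjusted p = 7.7e-04). Elovl7 fell from 1436 ± 799.8 to 527 ± 78.3 (-1.31, SE 0.40, limma adjusted p = 0.037), a call that ended with either leukemic array left out (-1.45 without the first, -1.16 without the second) or without mature replicate 2 (-0.71). Scaled to the hybridization controls, the list had 9 genes that rose and 11 that fell, with a median of -0.68. Without leukemic replicate 1 there were 2 falling genes and without leukemic replicate 2 there was 1.

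In glycerolipid synthesis and remodelling 6 of 20 tested genes rose and 8 fell, with a median of -0.35. Without mature replicate 2 these counts were 7 and 6. They were 3 and 13 with a median of -1.65 under scaling to the hybridization controls, and setting all arrays to the same median gave a median of -0.66 and dropping the filter one of -0.10. Gpam, the mitochondrial acyltransferase that uses acyl-CoA for the first step of glycerolipid synthesis, rose from 464 ± 63.9 to 12452 ± 6079 (4.61, SE 0.36, limma adjusted p = 3.5e-04), and Mboat2, a lysophospholipid acyltransferase gene, from 56.6 ± 5.23 to 2088 ± 1247 (4.72, SE 0.45, limma adjusted p = 6.1e-04). Gpat3, whose product catalyses the same first step in the endoplasmic reticulum, fell from 1096 ± 48.7 to 105 ± 48.8 (-3.27, SE 0.36, limma adjusted p = 9.7e-04), and Dgat1, which makes triglyceride, from 14199 ± 493 to 2234 ± 989.8 (-2.73, SE 0.33, limma adjusted p = 0.0013). Gpam and Acsl5 lie on chromosome 19 with Tectb and Gucy2g between them in the RefSeq order of protein-coding genes. Reading each gene from the mean of its probe sets put Gpam at 3.03.

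Lipid droplet and lipolysis genes fell in 8 and rose in 3 of 16 tested cases, with a median of -0.70. Under scaling to the hybridization controls 11 fell and 0 rose, with a median of -2.01. Plin5, a droplet coat gene, fell from 279 ± 1.74 to 18.4 ± 14.1 (-3.16, SE 0.49, limma adjusted p = 0.0028), and G0s2, an inhibitor of triglyceride lipase, from 7346 ± 2847 to 842 ± 472 (-3.16, SE 0.44, limma adjusted p = 0.0020). Plin5 was at -1.48 without probe sets with shared suffixes. Fitm1 (1.87, SE 0.47, limma adjusted p = 0.018) and Cideb (1.51, SE 0.44, limma adjusted p = 0.029) rose. Fitm1 lost its call without leukemic replicate 1 (1.34) or mature replicate 2 (1.78). Cideb lost its call with either leukemic array left out (1.74 without the first, 1.27 without the second) and without mature replicate 2 (1.33). Under quantile normalization or with every array at the same median 1 gene rose. The count of falling genes was 5 without either leukemic array, and that of rising genes 0 without leukemic replicate 1, 1 without leukemic replicate 2 and 2 without mature replicate 1 or mature replicate 2.

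Among the regulators 2 of 12 tested were higher and 1 lower, with a median of -0.19. Scaled to the hybridization controls, 0 were higher and 8 lower, with a median of -1.42. Ppargc1b, a coactivator of oxidative genes, rose from 27.2 ± 26.9 to 231 ± 33.6 (2.66, SE 0.57, limma adjusted p = 0.0094). Srebf1, the driver of fatty acid synthesis genes, rose from 998 ± 15.0 to 1788 ± 165 (0.83, SE 0.23, limma adjusted p = 0.024), and was at -0.49 under scaling to the hybridization controls. Mlx, the partner of the carbohydrate-responsive factor, fell from 1120.4 ± 30.9 to 607 ± 128 (-0.88, SE 0.26, limma adjusted p = 0.032). No regulator passed without leukemic replicate 1 (Ppargc1b 2.52, Srebf1 0.92, Mlx -1.09) or leukemic replicate 2 (2.80, 0.73 and -0.67). Mlx also lost its call without mature replicate 1 (-0.91) or mature replicate 2 (-0.85), and without mature replicate 1 there were 3 higher genes.

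Other settings ended further calls among the genes named from these lists. Scaling to the hybridization controls ended those of Acot6 (0.72), Amacr (0.62), Cideb (0.38), Cpt1c (2.13), Fitm1 (0.71), Pecr (0.02), Ppargc1b (1.66) and Vldlr (0.46). With every array at the same median the calls of Acot2 (0.91), Acsf3 (1.00), Cideb (1.23), Pecr (0.96) and Srebf1 (0.51) were lost. Quantile normalization ended those of Acot6 (1.51), Acsf3 (1.02), Amacr (1.49), Cideb (1.20) and Pecr (0.94). Reading each gene from the mean of its probe sets ended those of Acot2 (0.52), Acot6 (1.08) and Cpt2 (-0.41). Leaving out probe sets with shared suffixes ended that of Vldlr (1.77). Without a filter Cideb, Cpt2 and Elovl7 did not pass, and without a variance trend Acad11, Cpt2, Elovl7, Mlx and Srebf1 did not, at the same fold changes. A replicate block ended the call of Cpt2 alone among the named genes.

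**Figure D4:**
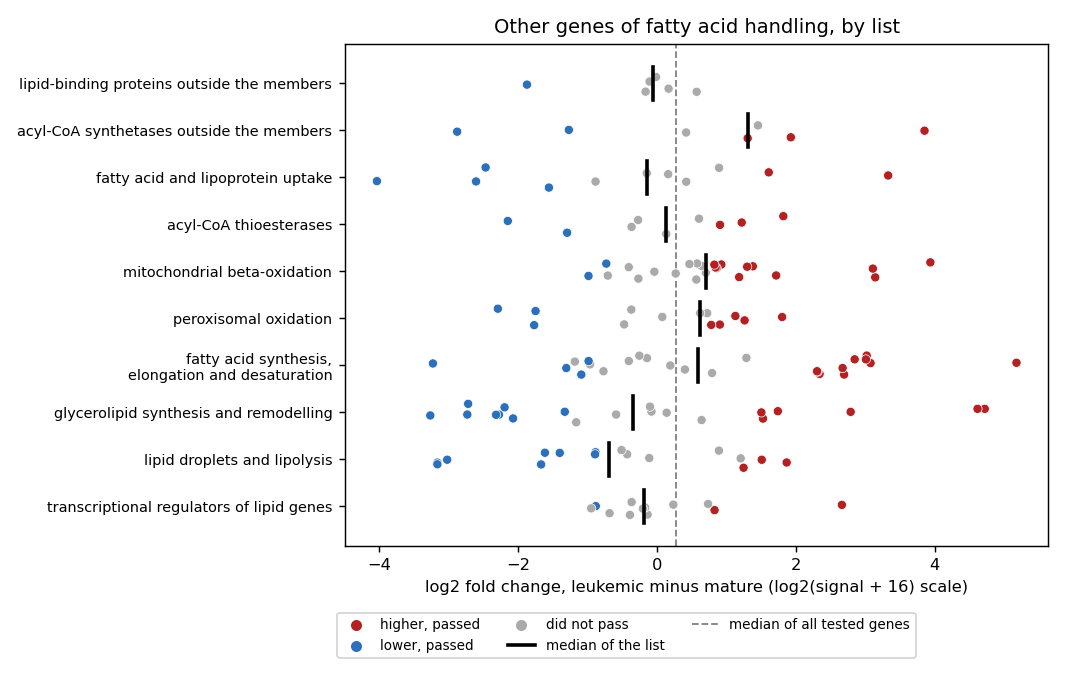
Log2 fold change (leukemic minus mature, from log2(signal + 16) values) of the 141 tested genes of 10 lists, 1 point a gene, red where it rose, blue where it fell and grey where it did not pass (limma, adjusted p threshold 0.05). Black bars are list medians, from -0.70 for lipid droplets and lipolysis to 1.30 for acyl-CoA synthetases (0.04 under scaling to the hybridization controls), and the dashed line is the median of all tested genes, 0.28, which moves to -0.95 under scaling to the hybridization controls.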

How the data were processed

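Total RNA of 4 mouse marrow samples, 2 MN1 leukemic and 2 Gr1/Mac1, was measured on single-colour arrays. The authors deposited MAS5 signals, which are linear intensity values. The submitters' processing notes name MAS5 and GCOS 1.3.0, and the labels give neither settings nor a scale target. The trimmed mean signal (2% at each end) was 500.003 or 500.004 in every array, so the arrays had been scaled to 1 target. Array number limits precision, and p-values measure the spread between these samples, which the design text calls biological replicates.

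Of 45101 probe sets, 64 controls were left out; 34945 of the others carried 1 gene symbol from the platform annotation, 932 several and 9160 none here, and 0 symbols changed against RefSeq GRCm38.p6. Signals were taken as log2(signal + 16), the dimmest 40% of probe sets by mean signal were left out (27022 kept, lowest mean 47.6), and each gene was read from its brightest probe set, which gave 12378 genes. The comparison used lmFit and eBayes of limma 3.58.1 under R 4.3.3 (variance trend, two-sided, 6.90 degrees of freedom after moderation). P-values were adjusted by Benjamini-Hochberg over all tested genes, threshold 0.05. In simulated data this fit recovered 1 of 93 genes changed by a log2 fold of 1, and 50 of 107 changed by 3. The simulation changed a far smaller share of genes than was called here. It also shuffled the spreads over genes, so that spread did not follow signal. Its recovered counts need not hold for the measured arrays. A gene that did not pass may still differ. The SE of a member probe set comes from the same fit to the measured signals over all 45037 probe sets without the filter. Members and gene lists were chosen with earlier results of these data known. Named genes outside the members were those of the 2 family lists that passed, up to 2 in each direction with the largest change in each other list, and the 3 nearest profiles of the members with the highest and lowest difference. Plots were made in Python 3.11.15 using matplotlib 3.10.9. Alternatives were pseudocounts of 1 and 64, no filter, 60% left out, 3 other scalings, mean of probe sets, no probe sets with the suffixes _x_at, _s_at and _a_at, other variance models, a replicate block, each probe set by itself, and each array left out.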

Additional observations from a re-analysis of the deposited data

How the results depend on the processing

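With 2 arrays a group, dim signals limit what can be read, and Fabp3 and Fabp4 lay near the filter. With arrays scaled to the hybridization controls (1 factor for each group), Fabp3 turned to -0.75 (also -0.55 without mature replicate 1), Fabp5 to -0.16, Acsl3 to -0.77, Acsl4 to -0.55, Acot2 to -0.073 and Srebf1 to -0.49, 1083 genes were higher and 5944 lower, 16 pathway genes were higher and 76 lower, and 1 member was separated upward and 4 downward. With every array at the same median, 2268 genes were higher overall and 29 of the pathway genes; 63.3% of calls were higher as deposited, 49.7% at the same median, 57.5% under quantile normalization and 15.4% with hybridization controls. No member was separated downward with the lowest 60% left out or without probe sets with shared suffixes (0 in both). The first of these settings left out Fabp3 and Fabp4 altogether. The second read Fabp4 from 1425809_at, whose groups overlapped. The share of all tested genes separated in this way was counted for the deposited signals only. Nothing is read from the member counts under other settings, single arrays left out among them. With single arrays left out, changed genes numbered 2575 to 5441, higher genes 1544 to 3571 and lower genes 1031 to 1908. Changed pathway genes then numbered 41 to 81, with 20 to 50 higher and 21 to 34 lower, and separated members 6 to 7, with 5 to 6 upward and 1 to 2 downward. With the replicate number as a block, 5562 genes changed, 80 of them pathway genes, and Cpt2 lost its call; the labels do not say that the numbers pair the arrays.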
